A study of Mus musculus with 3 samples.

Results

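S100 proteins are small calcium-binding proteins, and 10 of their genes were followed in NMuMG cells, an established epithelial line grown from mouse mammary gland, with and without the transcription factor MAFK. The genes were S100a1, S100a4, S100a6, S100a8, S100a9, S100a10, S100a11, S100a13, S100a14 and S100a16, chosen by symbol with earlier results of these data known. Each was represented by the probe set with the highest mean among those annotated to that gene alone. Thus 10 of 19935 measured genes are described. One array held FLAG-MAFK clone 4 and one held FLAG-MAFK clone 10, stable clones with FLAG-tagged MafK in the pCAGIP vector (MAFK, n = 2), and 1 array held cells with pCAGIP only (mock, n = 1). All cells were grown under puromycin. Each MAFK array is a single clone, no label says whether mock is a clone, and mock was measured once, so its own spread is unknown and differences that arose during cloning cannot be told apart from those of MAFK. The labels give no replicate cultures of a clone or of mock. The p-values therefore rest on the spread between the 2 clones, moderated by a prior from other genes. That spread may hold clone differences as well as technical ones, which cannot be told apart.

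Most S100 proteins form dimers whose subunits each carry a pair of EF-hand calcium-binding loops, and calcium binding exposes a surface that holds target proteins such as annexins and myosin. S100A10 is the exception that has lost calcium binding and stays in an active shape. Some members, above all S100A8 and S100A9, are also secreted and bind receptors such as RAGE and TLR4. S100A4 is widely known as a gene of mesenchymal and motile cells. In mouse, the genes whose symbols begin with S100a lie on chromosome 3 in a cluster that also holds the genes of the cornified epithelium, and MAFK is a small MAF protein that binds DNA at MAF recognition and antioxidant response elements.

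Promoter windows of 3 genes are shown because they belong to the 2 genes with the largest differences from mock, S100a4 and S100a8, and to S100a9, which encodes the usual partner of S100A8 and read the same on all 3 arrays. Each is 300 bases from RefSeq (GRCm38.p6), from 250 bases before the gene's start to 50 bases from it on, written 5′ to 3′ on the gene's strand. They lie at chr3:90603520-90603819 (plus strand), chr3:90668821-90669120 (plus strand) and chr3:90695672-90695971 (minus strand). Capitals mark a match to any of the 3 motifs named after the sequences.
S100a4: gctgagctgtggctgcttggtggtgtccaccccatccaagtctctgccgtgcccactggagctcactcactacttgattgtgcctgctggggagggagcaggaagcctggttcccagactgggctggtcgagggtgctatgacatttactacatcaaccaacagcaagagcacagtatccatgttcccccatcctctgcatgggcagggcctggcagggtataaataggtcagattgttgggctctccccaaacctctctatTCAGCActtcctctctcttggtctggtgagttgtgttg
S100a8: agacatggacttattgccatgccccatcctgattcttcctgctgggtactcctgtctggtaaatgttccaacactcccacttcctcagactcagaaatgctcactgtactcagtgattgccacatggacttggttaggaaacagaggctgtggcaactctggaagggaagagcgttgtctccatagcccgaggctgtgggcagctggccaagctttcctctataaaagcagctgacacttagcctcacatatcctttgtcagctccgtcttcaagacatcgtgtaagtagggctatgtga
S100a9: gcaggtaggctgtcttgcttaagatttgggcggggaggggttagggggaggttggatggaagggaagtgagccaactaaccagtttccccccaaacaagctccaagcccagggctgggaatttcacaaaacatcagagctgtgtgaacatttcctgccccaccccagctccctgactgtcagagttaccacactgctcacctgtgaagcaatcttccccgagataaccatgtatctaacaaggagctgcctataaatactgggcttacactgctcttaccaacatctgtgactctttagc
The motifs were TGACNNNGC, the core of the antioxidant response and MAF element, TGCTGA, the outer letters of a MAF recognition element, and TGANTCA, the AP-1 element, searched on both strands. They can overlap each other, since 1 stretch can hold the outer letters and the core, or the core and the AP-1 letters. The S100a4 window held the outer letters once, on the opposite strand and 12 bases past the gene's start, and the windows of S100a8 and S100a9 held none of the 3. Of 10 genes, 8 had a window, S100a16 had 2 windows, and S100a10 and S100a14 had none in the table. Among the 8, the outer letters were also in S100a6, the core was in S100a16, and AP-1 letters were in S100a11 (at 2 places) and S100a16. Of 32851 RefSeq windows of the same length, 12.4% held the core, 19.5% the outer letters and 7.81% the AP-1 letters. A match describes letters in the window only.

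All 6 of the 10 genes that differed between arrays were lower than mock in both MAFK clones, and none was higher in either. Across all genes 17.9% were lower than mock in both clones and 33.7% were higher in both. The other 4 genes, S100a9, S100a10, S100a13 and S100a14, had the same value on all 3 arrays, as did 34.3% of all genes. Such ties come from the way RMA, the authors' method, summarises the probes of a set over few arrays, and an equal value does not show that the transcript was unchanged. On the log2 scale the 10 genes had a median difference of -0.40 in clone 4 and -0.31 in clone 10, against 0 in both clones over all genes. The 10 were chosen with earlier results known, so their shares and medians do not speak for all S100 genes. Of the 6 measured genes on a list of other S100 genes, 1 was lower in both clones, 1 was higher in both and 4 were tied. The median difference of those 6 was 0 in each clone. At least 2-fold lower in both clones were 2 of 10, S100a4 and S100a8, where 1.81% of all genes were, and none was at least 2-fold higher, where 1.19% of all genes were. Here "fell" is used of a gene at least 2-fold lower in both clones that also passed limma's moderated test over all genes (Benjamini-Hochberg adjusted p under 0.05). S100a8 alone fell, 1 of 10 where 0.762% of all genes did.

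**Figure D1:**
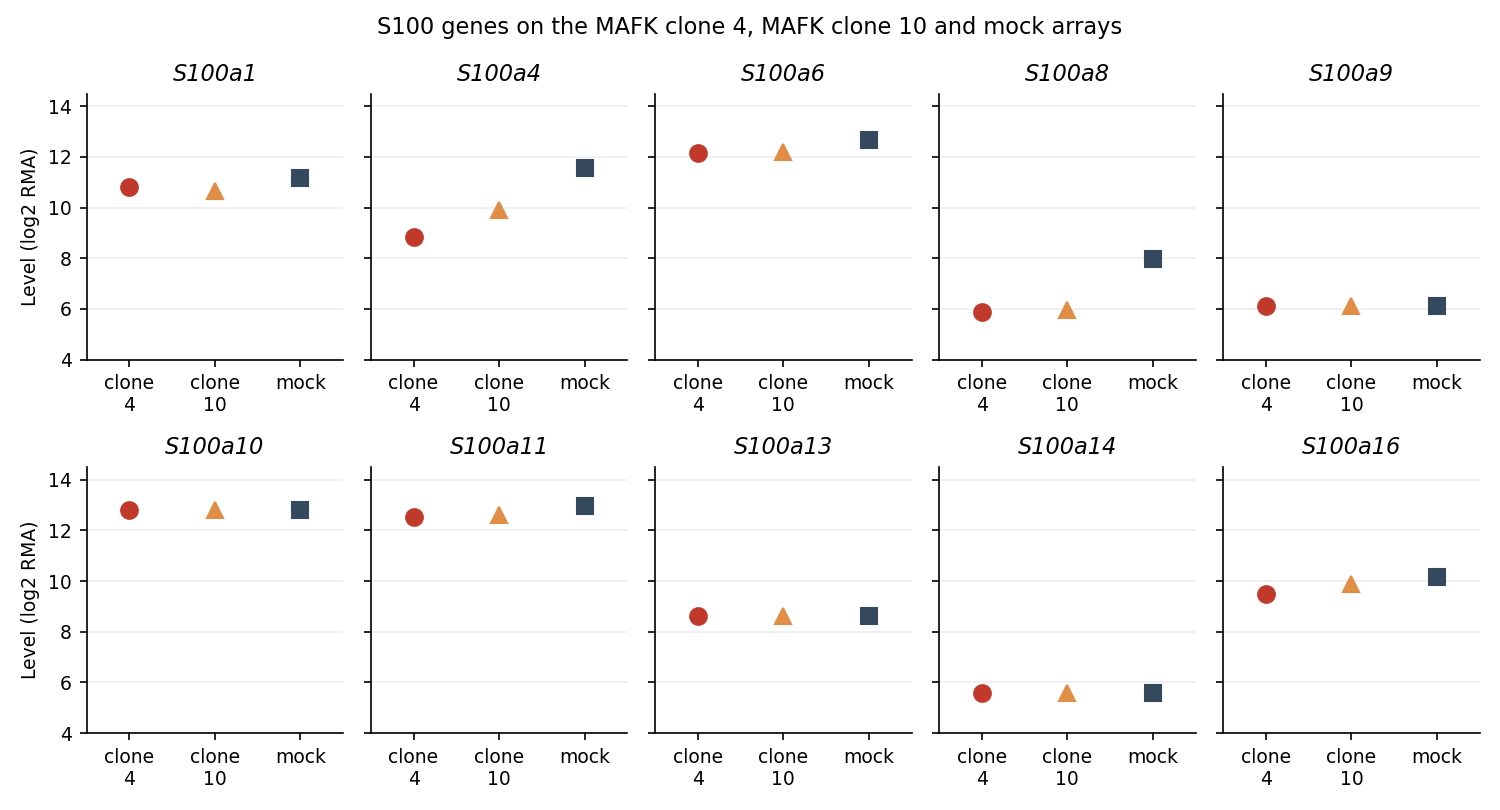
Levels (log2 RMA) of the 10 S100 genes on the MAFK clone 4 array (circle), the MAFK clone 10 array (triangle) and the mock array (square), 1 panel a gene and 1 point an array, with no error bars because each point is a single array. S100a4 and S100a8 stand lowest in the clones relative to mock, S100a1, S100a6, S100a11 and S100a16 lie slightly below mock, and 4 genes are level.

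S100a8 and S100a9 encode the subunits of calprotectin, a secreted antimicrobial heterodimer that is abundant in neutrophils and is also made by inflamed epithelium. S100a8 read 5.88 in clone 4 and 5.94 in clone 10, against 7.97 in mock on the log2 RMA scale. Both clones lay below the array medians of 6.92 and 6.93 and close together, and mock lay above its own median of 6.89. Both clones were thus below the single mock array, as for 17.9% of all genes. The mean of the clones was 5.91 ± 0.05 (SD, n = 2), which is 4.17-fold lower than mock, a log2 difference of -2.06 ± 0.08 (SE) with a limma adjusted p of 0.0315. In clone 4 alone the difference was 4.27-fold and in clone 10 alone 4.07-fold. RMA compresses differences at such low values, so the fold describes these arrays on the RMA scale. Among the 361 genes called lower by that fold rule, 102 had a larger difference than S100a8 by the smaller of their clones.

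For S100a9 no difference was detectable on these arrays. It read 6.13 in clone 4, in clone 10 and in mock, below the median of each array. This tie does not show that the transcript was unchanged. The mock value was already near the 5.88 (clone 4) and 5.94 (clone 10) of S100a8, so a similar decrease could hardly have been read for S100a9. After a second quantile normalization, which breaks the tie, its log2 difference was -0.04 with a limma adjusted p of 0.0968.

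Markers of myeloid cells, the other cells known to make calprotectin in quantity, were low throughout. All 11 listed markers, among them Ptprc, Itgam, Mpo, Elane and Ly6g, lay below the array medians, from 5.07 to 6.61 in clone 4, from 5.12 to 6.57 in clone 10 and from 5.07 to 6.56 in mock. Their summed level on the linear scale was 655 in clone 4 and 659 in clone 10, against 631 in mock. The part of myeloid cells in the S100a8 difference was not tested. The highest marker was Camp, the cathelicidin gene, at 6.61 in clone 4, 6.57 in clone 10 and 6.56 in mock.

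S100a4, also called FSP1, encodes a partner of nonmuscle myosin IIA that is known for cell motility and serves as a mesenchymal and fibroblast marker. It read 8.82 in clone 4 and 9.92 in clone 10, against 11.57 in mock. Both clones were below mock, as for 17.9% of all genes, but clone 4 lay well below clone 10. The clones averaged 9.37 ± 0.78 (SD, n = 2), 4.60-fold lower than mock, with a log2 difference of -2.20 ± 0.56 (SE). The limma adjusted p was 0.231, so the difference did not pass. The difference was 6.72-fold in clone 4 and 3.14-fold in clone 10. The gap between the clones, -1.10 (clone 4 minus clone 10, log2), was wider than that of 99.7% of all genes. By the smaller of their clones' differences 153 of the 361 lower genes stood above S100a4.

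Fibroblast markers other than S100a4 went in both directions. Of 9 listed, 2 were lower than mock in both clones (17.9% of all genes), 4 were higher in both (33.7% of all genes) and 3 were equal on all arrays (34.3% of all genes). Dcn, which encodes the matrix proteoglycan decorin, read 5.76 in clone 4 and 6.06 in clone 10, against 7.88 in mock (limma adjusted p = 0.0711), and was the 1 marker at least 2-fold apart in both clones. The collagen gene Col1a1, the marker with the highest mean level, read 7.75 in clone 4 and 7.78 in clone 10, against 7.47 in mock (limma adjusted p = 0.218). Summed on the linear scale the list gave 951 in clone 4 and 926 in clone 10, against 956 in mock. Pdgfra, Thy1, Lum, Fap and Dpt lay below the median of each array. The part of other cells in the S100a4 difference was not tested.

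**Figure D2:**
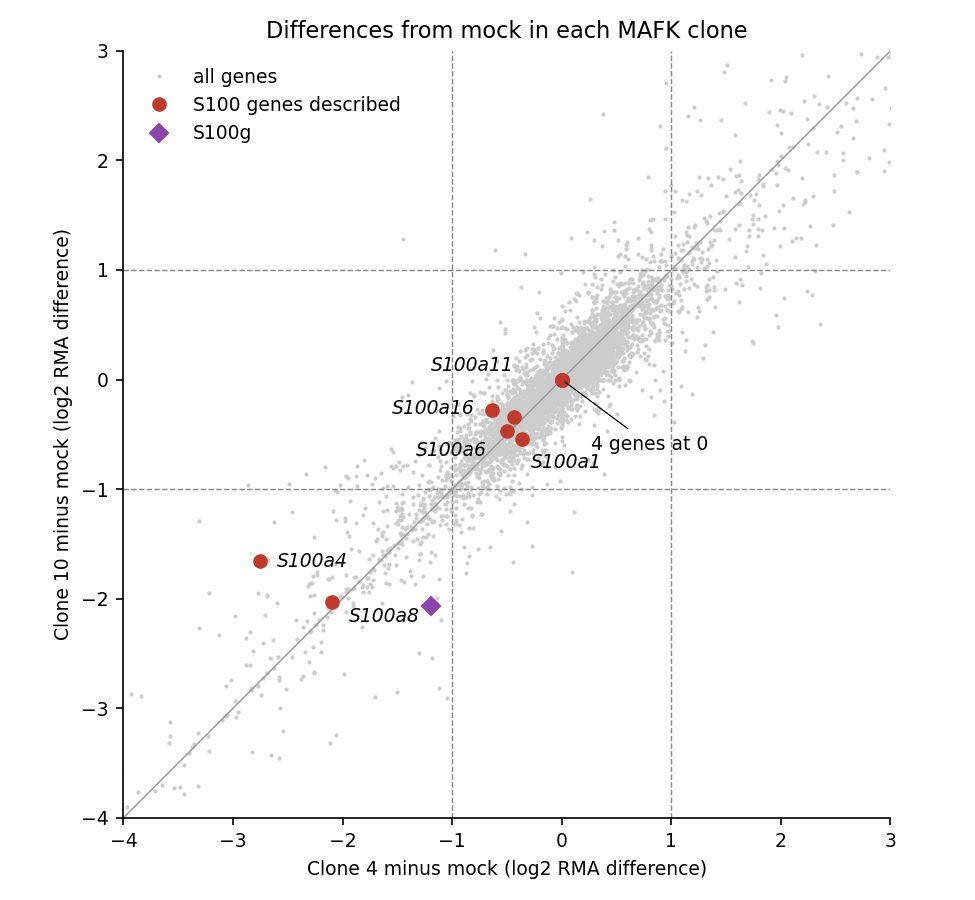
Log2 RMA difference from mock in clone 10 (vertical axis) against that in clone 4 (horizontal axis) for all genes (grey), the 10 S100 genes (red) and S100g (purple), with 61 genes outside the plotted range of -4 to 3 not drawn. Dashed lines mark 2-fold and the diagonal marks equal differences in both clones: S100a8 lies on the diagonal, S100a4 lies off it with the larger decrease in clone 4, S100g lies off it with the larger decrease in clone 10, and the other S100 genes lie within 2-fold.

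The abundantly read S100a6, S100a11 and S100a10 encode proteins that bind annexins at membranes. S100a6, which encodes calcyclin, a protein of proliferating epithelial and stromal cells, read 12.16 in clone 4 and 12.19 in clone 10, against 12.66 in mock. The clones were within 0.03 of each other and both below mock, at a mean of 12.18 ± 0.02 (SD, n = 2), 1.40-fold lower. The log2 difference of -0.48 ± 0.07 (SE) did not pass (limma adjusted p = 0.127). It passed with the prior taken from all genes (limma adjusted p = 0.0268) and after a second quantile normalization (0.0436). The first of these priors includes the genes tied in the clones, whose spread is 0. The second normalization breaks ties, so genes tied in the deposited values can enter its prior too. Neither is separate support for S100a6.

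S100a11, whose product binds annexin A1 and is known from keratinocyte differentiation, had 2 probe sets. The one with the higher mean read 12.54 in clone 4 and 12.63 in clone 10, against 12.97 in mock. The other read 12.46 in clone 4 and 12.61 in clone 10, against 12.95 in mock. Both probe sets placed clone 4 lowest and mock highest. By the first, the clones averaged 12.58 ± 0.06 (SD, n = 2), 1.31-fold lower than mock (log2 difference -0.39 ± 0.08, SE, limma adjusted p = 0.191). Both probe sets carry the same transcript accessions in the platform's annotation, so they are not independent genes.

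S100a10, which encodes p11, the light chain that joins annexin A2 at the membrane and binds plasminogen, read 12.81 on all 3 arrays. Its partner Anxa2 read 11.92 in clone 4 and 12.10 in clone 10, against 12.05 in mock, so mock lay between the clones (limma adjusted p = 1). Ahnak, the giant scaffold protein gene whose product binds that complex, read 10.44 on all 3 arrays. No difference was detectable in these 3 genes.

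S100a1, S100a13, S100a14 and S100a16 differed by less than 2-fold in both clones or were tied. S100a1, best known as a regulator of calcium handling in heart muscle, read 10.82 in clone 4 and 10.64 in clone 10, against 11.18 in mock. Its clones averaged 10.73 ± 0.13 (SD, n = 2), 1.37-fold lower (log2 difference -0.45 ± 0.12, SE, limma adjusted p = 0.232). S100a13, which takes part in the release of proteins that lack a signal peptide such as FGF1, read 8.63 on all 3 arrays. These genes start close together on opposite strands, and their promoter windows, chr3:90514281-90514580 (minus strand) and chr3:90514185-90514484 (plus strand), share 204 bases, which held none of the 3 motifs.

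S100a16, a broadly expressed member, read 9.51 in clone 4 and 9.87 in clone 10, against 10.15 in mock. Clone 4 was lower than clone 10, as for S100a4, with a gap of -0.36 between them (log2). The clones averaged 9.69 ± 0.26 (SD, n = 2), 1.37-fold lower than mock (log2 difference -0.46 ± 0.20, SE, limma adjusted p = 0.430). S100a14, an epithelial member, read 5.59 on all 3 arrays, below the median of each.

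Of the 7 other S100 genes listed, 6 were measured, and of these S100g alone passed the 2-fold rule. S100g, the X-linked gene of calbindin-D9k, which carries calcium through absorbing epithelia, read 8.63 in clone 4 and 7.76 in clone 10, against 9.83 in mock. Both clones were lower than mock, and clone 10 was the lower of them, the reverse of S100a4. The mean was 8.20 ± 0.62 (SD, n = 2), 3.10-fold lower, without passing (log2 difference -1.63 ± 0.45, SE, limma adjusted p = 0.250). S100a3, S100a5, S100a7a and S100b were equal on all arrays and S100z read 5.57 in both clones, against 5.48 in mock. S100a2, added after its values were seen, read 6.24 in clone 4 and 6.32 in clone 10, against 6.24 in mock. The 6 measured genes of the fused type, which join an S100 domain to a long repeat and are expressed in cornified epithelium (Flg2, Hrnr, Rptn, Tchh, Tchhl1 and Crnn), were all below 6.90 on every array and none was 2-fold apart. The highest of them by mean level, Tchhl1, read 6.90 in both clones, against 6.74 in mock.

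The cluster on chromosome 3 was then read in the gene order of the reference. The 12 genes from S100a1 to S100a9 follow one another with no other measured gene between them, and S100a11 and S100a10 follow after 48 genes of the cornified epithelium and their neighbours. Along the first 12, S100a4 and S100a8 each stood between genes that differed from mock by less than 0.5 in both clones on the log2 scale. S100a5, between S100a4 and S100a6, read 6.12 on all arrays, and S100a7a, next to S100a8, read 6.89 on all arrays. Of the 48 genes in between, 3 fell, where 0.762% of all genes did, and none was 2-fold higher, where 1.19% of all genes were. On all 3 arrays 39 of the 48 lay below the mock median of 6.89, as did 9576 of all 19935 genes.

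The 3 that fell were Sprr2g, Sprr2h and Pglyrp3. Sprr2g, a small proline-rich gene of the cornified envelope, read 5.92 in clone 4 and 5.76 in clone 10, against 8.50 in mock, 6.31-fold lower (limma adjusted p = 0.0344). Sprr2h read 5.86 in clone 4 and 5.87 in clone 10, against 7.38 in mock, 2.87-fold lower (limma adjusted p = 0.0366). Pglyrp3, which encodes a secreted protein that binds bacterial peptidoglycan, read 6.15 in both clones, against 7.43 in mock, 2.43-fold lower (limma adjusted p = 0.0438). The Sprr2 genes are close copies of one another, so their probe sets may share signal. Other small proline-rich genes lay on both sides of mock or level with it. Sprr2e (-0.13 in each clone, log2), Sprr2f (-0.09 in each) and Sprr2d (-0.01 in each) were slightly lower in both clones. Sprr1a read 13.44 in clone 4 and 13.48 in clone 10, against 12.64 in mock, 1.76-fold higher (limma adjusted p = 0.0723). Sprr2k read 7.40 in clone 4 and 7.60 in clone 10, against 6.81 in mock, 1.61-fold higher (limma adjusted p = 0.160), and Sprr1b read 12.94 on all 3 arrays. Sprr1a, Sprr1b, Sprr2d, Sprr2e, Sprr2f and Sprr2k were chosen after their values were seen. Of the 10 measured genes on each side of the cluster, a span chosen after the data were seen, none was 2-fold lower (1.81% of all genes) and 1 was 2-fold higher (1.19% of all genes). This was Tdrkh (8.16 in clone 4 and 7.60 in clone 10, against 5.59 in mock, limma adjusted p = 0.109). Over all 943 measured genes of chromosome 3 the median difference was 0 in each clone and the mean was 0.01 in clone 4 and 0.02 in clone 10.

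**Figure D3:**
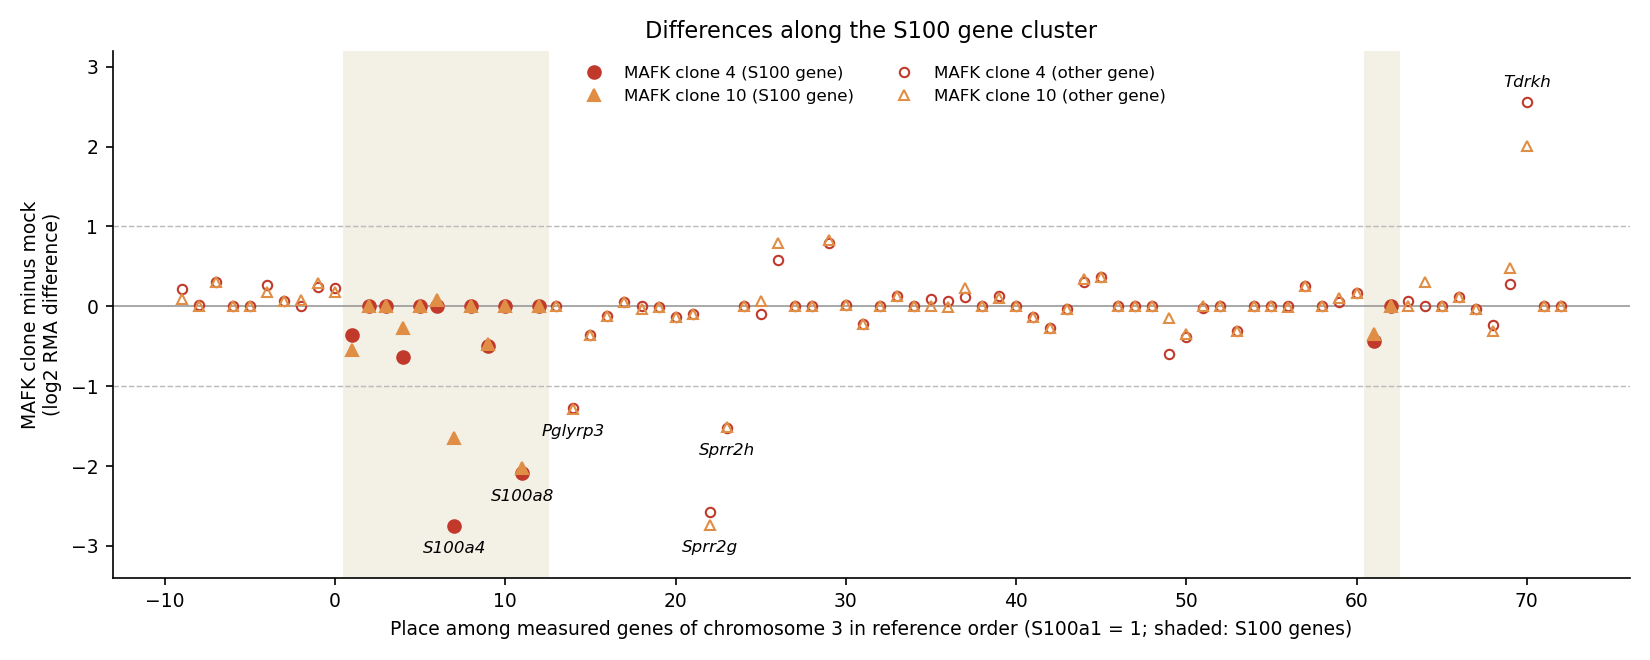
Log2 RMA difference from mock in clone 4 (circles) and clone 10 (triangles) for the measured genes of chromosome 3 around the S100 cluster, placed by their order in the reference with S100a1 at place 1, S100 genes filled and other genes open, dashed lines at 2-fold. Names mark genes past 2-fold in each clone: S100a4, S100a8, Pglyrp3, Sprr2g and Sprr2h lie below and Tdrkh above, and the other genes shown were not 2-fold apart in both clones.

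Annexins, the membrane-binding proteins that many S100 dimers hold, differed in both directions. Of 13 genes (12 annexins and Ahnak), 7 were lower than mock in both clones (17.9% of all genes) and 2 higher in both (33.7% of all genes), with a median difference of -0.20 in clone 4 and -0.14 in clone 10, against 0 over all genes. At least 2-fold lower in both clones were 3 (1.81% of all genes), none was 2-fold higher (1.19% of all genes) and none passed limma. Anxa1, the partner of S100A11 and a mediator that dampens inflammation, read 10.54 in clone 4 and 10.77 in clone 10, against 11.79 in mock, 2.20-fold lower (limma adjusted p = 0.0997). Anxa8 read 9.42 in clone 4 and 9.89 in clone 10, against 11.65 in mock, 3.98-fold lower (limma adjusted p = 0.109). Anxa13, an annexin of absorbing epithelia, read 7.17 in clone 4 and 6.40 in clone 10, against 9.83 in mock, 8.23-fold lower (limma adjusted p = 0.112). Anxa5, with the highest mean level of the list, read 12.66 on all 3 arrays.

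Receptors of secreted S100 proteins differed in direction, and none passed the test. Of 8 measured, 1 was 2-fold lower in both clones (1.81% of all genes) and 1 was 2-fold higher (1.19% of all genes). Alcam, which encodes a cell adhesion molecule, read 7.31 in clone 4 and 6.65 in clone 10, against 9.86 in mock, 7.35-fold lower (limma adjusted p = 0.103). Mcam, the gene of the adhesion molecule CD146, a receptor for S100A8 and S100A9, read 9.93 in clone 4 and 10.27 in clone 10, against 7.50 in mock, 6.05-fold higher (limma adjusted p = 0.0593). Tlr4, which encodes the endotoxin receptor that S100A8 also binds, read 7.96 in clone 4 and 8.21 in clone 10, against 8.51 in mock (limma adjusted p = 0.315). Ager, the gene of RAGE, read 7.30 on all 3 arrays, and Nptn, with the highest mean level of the list, 11.98 on all 3.

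Intracellular partners included genes apart in both directions. Of 15 measured, 1 fell (0.762% of all genes), 2 were 2-fold higher in both clones without passing (1.19% of all genes were 2-fold higher), and 12 were not 2-fold apart in both. Mdm2, the ubiquitin ligase of p53, whose product binds S100 proteins, fell to 8.88 in clone 4 and 8.95 in clone 10, against 10.29 in mock (limma adjusted p = 0.0439). The heavy chain genes of nonmuscle myosin II, the best known target of S100A4, differed in direction. Myh9, the heavy chain of myosin IIA, read 11.28 in clone 4 and 11.20 in clone 10, against 11.92 in mock (limma adjusted p = 0.101). Myh10, the heavy chain of myosin IIB, read 10.02 in clone 4 and 10.15 in clone 10, against 8.92 in mock, 2.25-fold higher (limma adjusted p = 0.0693). Dlc1, whose product binds S100A10, read 8.28 in clone 4 and 8.17 in clone 10, against 7.13 in mock, 2.13-fold higher (limma adjusted p = 0.0692). Atp2a2, a calcium pump gene with the highest mean level of the list, read 11.75 in clone 4 and 11.73 in clone 10, against 11.75 in mock. The medians of the receptor and partner lists were 0 in both clones, as over all genes.

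**Figure D4:**
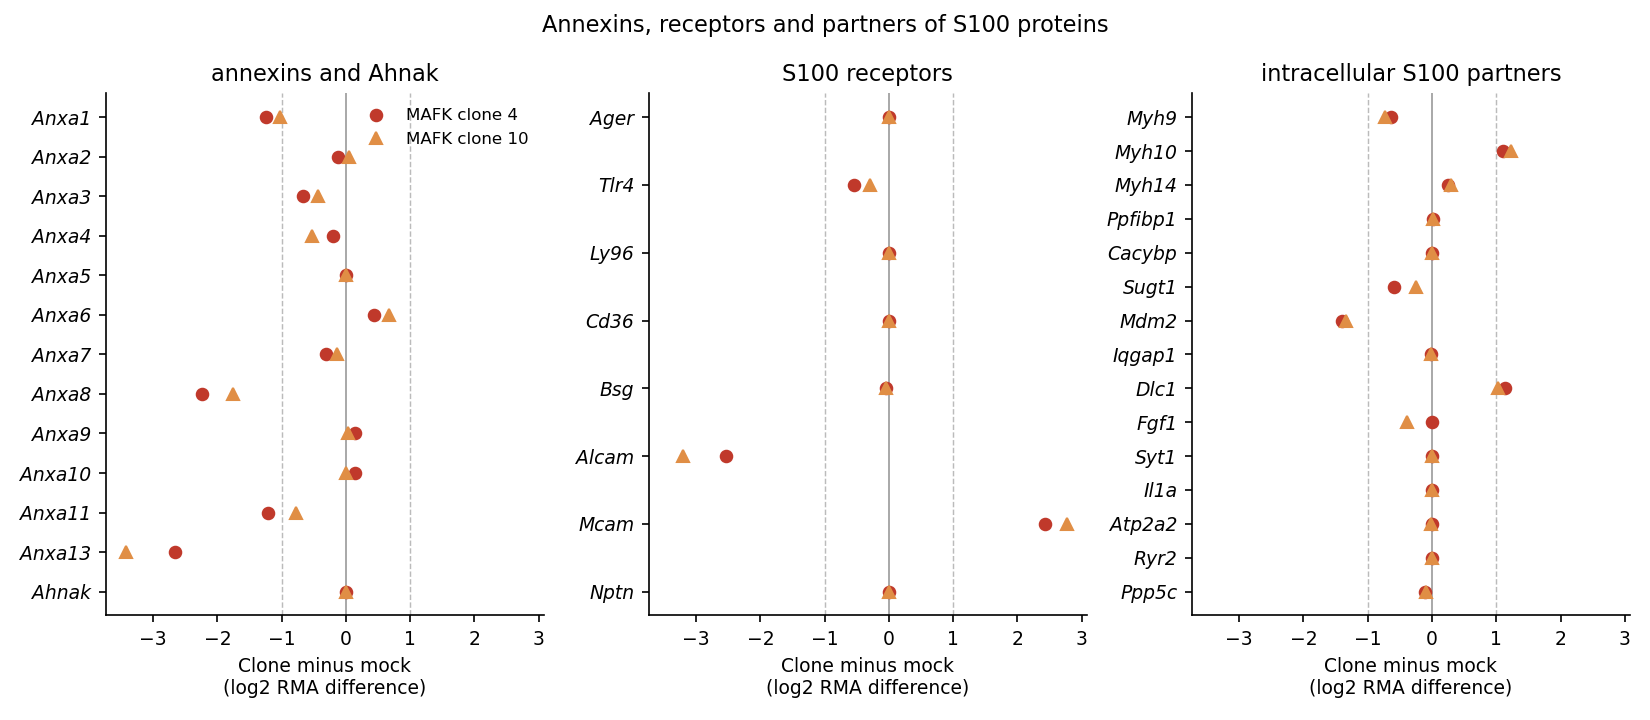
Log2 RMA difference from mock in clone 4 (circles) and clone 10 (triangles) for annexins and Ahnak (left), receptors of S100 proteins (middle) and intracellular partners (right), with dashed lines at 2-fold. Anxa1, Anxa8, Anxa13, Alcam and Mdm2 lie at least 2-fold below 0 in both clones, and Mcam, Myh10 and Dlc1 at least 2-fold above.

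By the pair of differences from mock in the clones, the 3 genes nearest to S100a8 were Prg4, Syt14 and Arap2. Their distances from S100a8, as Euclidean distances over 2 differences that share the mock array, were 0.0265, 0.0600 and 0.0689 on the log2 scale. Prg4 read 5.41 in clone 4 and 5.44 in clone 10, against 7.49 in mock. With 3 arrays, many genes can lie as near.

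The epithelial label was checked against 11 markers. Lower than mock in both clones were Krt8, Krt18 and Cdh1, 3 of 11 (17.9% of all genes). Higher in both were 4 (33.7% of all genes), and 3 were equal on all arrays (34.3% of all genes). Cdh1 alone was at least 2-fold lower in both clones (1.81% of all genes) and none was 2-fold higher (1.19% of all genes). Krt8 read 13.18 in clone 4 and 13.31 in clone 10, against 13.67 in mock, and Krt19 read 12.25 in clone 4 and 12.08 in clone 10, against 11.99 in mock. Cdh1, the gene of E-cadherin, fell to 6.85 in clone 4 and 6.64 in clone 10, against 11.35 in mock (limma adjusted p = 0.0282). Krt18 read 10.92 in clone 4 and 11.08 in clone 10, against 11.95 in mock, 1.93-fold lower (limma adjusted p = 0.0972). Epcam, Esrp1 and Grhl2 lay below the array medians and were equal on all 3 arrays. Krt7, Cldn3, Cldn4 and Cldn7 read from 6.40 (Cldn7 in clone 4 and mock) to 7.11 (Krt7 in clone 4). Of 6 measured markers of cornified keratinocytes, 1 was 2-fold lower in both clones (1.81% of all genes). This was Sbsn (6.81 in clone 4 and 7.28 in clone 10, against 9.08 in mock, limma adjusted p = 0.107). The summed linear level of the 6 was 518 in clone 4 and 563 in clone 10, against 980 in mock. Without Sbsn the other 5 summed to 406 in clone 4 and 407 in clone 10, against 441 in mock. The part of such cells in the S100 differences was not tested. The probe set of Mafk itself read 8.74 in clone 4 and 8.59 in clone 10, against 8.49 in mock (limma adjusted p = 0.612), and whether its probes match the transgene was not analysed here.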

How the data were processed

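RNA of 3 samples was measured on Affymetrix arrays. The authors deposited a log2 level for each probe set, computed by RMA according to the submitters' processing notes; the version, filters and genome build are not given in the sources used here. Values ran from 4.40 to 14.3, and the number of arrays limits the precision. Of 28815 probe sets, 21780 had 1 gene symbol in the platform's annotation, 1605 had several and 5430 none. Through Entrez identifiers, symbols were brought up to date with a RefSeq gene table (GRCm38.p6), which matched 21689, and the highest-mean probe set stood for each of 19935 genes. That table also gave gene order.

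Two-sided limma 3.58.1 (R 4.3.3, lmFit and moderated variances, Benjamini-Hochberg over all genes) used all 3 arrays, with 1 residual degree of freedom. Because 55.5% of genes were tied in the clones, the prior (1.93 degrees of freedom, SD 0.0694) came from the 8873 genes whose clones differed. Tied genes had the smallest standard error, 0.0690, which favours their passing. The code was tested on simulated data. Members, lists and this prior were chosen with earlier results of these data known. The rule for named genes took all 10 members, and from each other list the genes 2-fold apart in both clones and the one with the highest mean level; other names were chosen after their values were seen. Differences below 1e-08 counted as ties. Lists were annexins, receptors, partners, other S100, fused-type and EF-hand genes, and epithelial, fibroblast, myeloid and cornified keratinocyte markers. Python 3.11.15 was used for tables.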

Additional observations from a re-analysis of the deposited data

How the results depend on the processing

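S100a4 and S100a8 were the 2 genes at least 2-fold apart under every setting tried. Those settings were the prior from all genes, an intensity trend, a second quantile normalization, low genes left out (8 of 10 genes remain), the mean over probe sets and a fold of 1.5. The prior and the trend do not enter the fold rule, and S100a4 and S100a8 have 1 probe set each. A lower fold threshold could only add genes. Only the second quantile normalization recomputed the differences of these 2 genes. Without either clone the count was also 2, lowest and highest. It could not have been lower, since the rule requires 2-fold in each clone. It is a value with no test, since 1 array against 1 leaves no residual degree of freedom. The number of S100 genes past limma was 1, and it was 2 with the prior from all genes and 2 after a second quantile normalization, S100a6 being the addition. Both settings can let genes tied in the deposited values into the prior. S100a8 passed limma under each setting, with adjusted p from 0.0176 to 0.0390, and S100a4 under none (0.186 to 0.239). When low genes were left out, S100a8 was kept only through its mock value of 7.97, as both clones lay below the floor of 6.91. That setting is therefore no separate support for it. Of 48 single-gene values recomputed with a test, 46 kept their side of the threshold, and the other 2 were those of S100a6. The 6 genes that differed from mock were below it in all 30 of their tested values, most of which repeat the same difference. The prior, the trend and leaving out low genes do not alter a gene's difference, and the probe-set mean altered that of S100a11 only. The second quantile normalization altered the differences of all 6, which stayed below mock. The 12 values of the 6 genes without 1 clone were below mock by construction, since these genes were lower in both clones. The second quantile normalization broke the ties of the other 4 genes and gave them differences between -0.04 and 0.03. No paired analysis was possible because mock has 1 array. Background correction could not be varied without the scanner files, and no slide or scan date was used.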

Other observations

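Other EF-hand calcium-binding genes, from a list of 30 of which 29 were measured, were mostly near mock. Gca, which encodes grancalcin, an EF-hand protein first known from granulocytes, was the 1 member at least 2-fold apart in both clones. It read 11.47 in clone 4 and 10.70 in clone 10, against 8.98 in mock, 4.29-fold higher, and did not pass (limma adjusted p = 0.166). Capns1, the small subunit gene of calpain and the highest of the list by mean level, read 12.34 in clone 4 and 12.27 in clone 10, against 12.34 in mock. The calmodulin genes Calm2 and Calm3 differed from mock by at most 0.22 on the log2 scale in either clone. Of the 29 genes, 10 were higher than mock in both clones (33.7% of all genes), 8 were lower in both (17.9%) and 7 were equal on all arrays (34.3%). The median difference was 0 in both clones.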
